A study of Mus musculus with 6 samples.

Results

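The genes described here build, sense, move and export cholesterol: the enzymes of the synthesis pathway, the SREBP regulators, proteins of sterol transport and lysosomal uptake, the LXR receptors with their efflux pumps, and the oxysterol enzyme Ch25h. The list has 31 genes. A gene was read from its brightest probe set carrying that single gene symbol, by the mean over 6 arrays. With this rule 29 of the 31 had a probe set, and all 29 passed the filter on dim genes and were tested, among 12915 tested genes of 18194 with such a probe set. Acat2 and Nr1h2 were not analysed here. The cells were primary mouse embryo fibroblasts (MEF), connective tissue cells grown from embryos of the outbred ICR strain taken at day 15.5 of gestation, with no engineered allele in any group. There were 2 cultures, each from a different embryo, and each culture gave 1 array in each of 3 groups. Control cells stayed at 37 °C. LPS cells received lipopolysaccharide, a glycolipid from bacterial outer membranes, at 1 µg/ml for 4 h. HS+LPS cells were first heated to 42 °C for 1 h and then received LPS for 4 h. All groups grew in medium with serum, which supplies lipoprotein cholesterol. A group heated without LPS was not analysed here, so a difference between HS+LPS and LPS cannot be divided into an effect of heat alone and an effect on the response to LPS.

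Cells make cholesterol from acetyl-CoA through mevalonate, farnesyl diphosphate, squalene and lanosterol, or take it up from lipoproteins through the lysosome. When membrane sterol is low, Scap carries the SREBP proteins to the Golgi, where they are cut free to enter the nucleus and raise the synthesis genes together. When sterol is high, the Insig proteins hold Scap back, and oxysterols such as the product of Ch25h both strengthen this hold and act as ligands of the LXR receptors, which induce the efflux pumps Abca1 and Abcg1.

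All array values are signal intensities in scaled units, and a log2 difference is of intensity plus a pseudocount of 3.37. Differences were tested with limma, adjusted by the Benjamini-Hochberg method over all 12915 genes, and "called" means an adjusted p under 0.05. The fit across the 3 groups counts the difference between the cultures as error. A fit with the culture as a block removes that difference, and the word "blocked" marks its values. Each p-value between groups rests on 2 cultures a group. The array medians were 11.9 to 14.4. The noise level, the brightest signal of 27 bacterial control probe sets, was 6 to 7.67. All 10 fibroblast markers were above noise on every array, with a summed signal of 26992 to 35274. Of 10 macrophage markers, 5 were above noise on every array: Lyz2 (89.8 to 220), Csf1r (43.2 to 97.5), Adgre1, Cd68 and C1qb. Itgam and Fcgr1 were at or under noise on every array. The summed macrophage signal was 457 and 278 in Control, 416 and 226 in LPS and 386 and 243 in HS+LPS (cultures 1 and 2). Of the other defining markers, Pecam1 and Tie1 (endothelium), Cdh1 (epithelium), Adipoq and Lep (adipocytes) and Afp and Apoa1 (hepatocytes) were at or under noise on every array. Others were above noise on all 6 arrays: Kdr and Tek (endothelium), Epcam, Krt18 and Krt19 (epithelium) and Fabp4 (adipocytes, 175 to 198). Some markers moved with the groups. Pdgfrb fell with HS+LPS against LPS (log2 difference -0.81, limma adjusted p = 0.0277, blocked 0.00022), and in the blocked fit so did Pdgfra (-0.96, 0.00745). In that fit Krt18 (1.25, 0.047), Krt19 (0.88, 0.011) and Cx3cr1, a macrophage marker (1.29, 0.0409), rose. Cx3cr1 was near noise, at 9.71 and 2.99 with LPS against noise of 6 and 7.22 (cultures 1 and 2). No other macrophage marker tested was called there, with differences from -0.85 (Ptprc) to 0.36 (Cd68). Against Control, HS+LPS was lower in Pdgfra, Pdgfrb and Twist1 (-1.10, -0.75 and -0.55) and higher in Krt19 (0.72) in the blocked fit, and Twist1 was lower with LPS (-0.74, blocked 0.0363). The summed epithelial signal was 207 and 190 with HS+LPS (cultures 1 and 2) and 77.4 to 134 on the other arrays. The part of these markers in the results was not tested. In such bulk RNA, fewer cells of a type and less RNA per cell cannot be told apart.

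The promoters of the genes on which the results turn are given first, since SREBP, its partner NF-Y and factors of other pathways read these sequences. Each is the 250 bases before the annotated start of the gene in RefSeq's GRCm38.p6 table, 5′ to 3′ on the gene's strand. Capitals mark 4 motifs, searched on both strands: a sterol regulatory element (TCACNCCAC or ATCACNCCA), the CCAAT box bound by NF-Y (printed ATTGG where it lies on the other strand), the E-box CACGTG, and the cyclic AMP response element TGACGTCA. Ch25h lies at chr19:34475149-34475398 (minus strand) and was the member called in the 3-group fit.
Ch25h: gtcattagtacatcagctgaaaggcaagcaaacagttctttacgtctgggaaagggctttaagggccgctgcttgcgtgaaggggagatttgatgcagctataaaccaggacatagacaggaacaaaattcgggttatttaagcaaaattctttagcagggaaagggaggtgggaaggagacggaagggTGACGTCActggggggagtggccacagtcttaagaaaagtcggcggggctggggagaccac
Hmgcs1, the source of HMG-CoA for the pathway (chr13:119690101-119690350, plus strand), and Srebf2, the SREBP gene most tied to cholesterol (chr15:82147019-82147268, plus strand), held the sterol regulatory element.
Hmgcs1: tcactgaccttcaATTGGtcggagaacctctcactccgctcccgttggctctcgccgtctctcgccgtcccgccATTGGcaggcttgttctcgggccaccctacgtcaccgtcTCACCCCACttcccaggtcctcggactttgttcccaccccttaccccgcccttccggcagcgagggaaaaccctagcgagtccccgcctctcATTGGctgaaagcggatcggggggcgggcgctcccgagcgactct
Srebf2: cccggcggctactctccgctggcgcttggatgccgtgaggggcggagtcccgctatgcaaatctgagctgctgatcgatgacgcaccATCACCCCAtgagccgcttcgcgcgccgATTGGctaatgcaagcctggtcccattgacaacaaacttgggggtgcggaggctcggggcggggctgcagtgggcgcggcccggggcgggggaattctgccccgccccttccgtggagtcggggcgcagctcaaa
Lss (chr10:76531355-76531604, plus strand) and Hsd17b7 (chr1:169969206-169969455, minus strand) had the lowest blocked estimates among the synthesis enzymes after heat and LPS against LPS, and Abca1 (chr4:53159896-53160145, minus strand) is the cholesterol efflux pump.
Lss: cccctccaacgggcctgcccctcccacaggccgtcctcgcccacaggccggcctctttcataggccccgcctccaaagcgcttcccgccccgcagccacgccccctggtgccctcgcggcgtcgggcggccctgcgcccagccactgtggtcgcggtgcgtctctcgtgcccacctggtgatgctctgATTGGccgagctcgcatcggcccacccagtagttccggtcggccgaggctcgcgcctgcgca
Hsd17b7: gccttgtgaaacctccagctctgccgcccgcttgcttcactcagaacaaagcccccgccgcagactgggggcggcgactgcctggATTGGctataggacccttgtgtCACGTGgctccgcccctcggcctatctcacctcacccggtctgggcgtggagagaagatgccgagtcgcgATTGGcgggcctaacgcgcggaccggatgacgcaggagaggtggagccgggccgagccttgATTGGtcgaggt
Abca1: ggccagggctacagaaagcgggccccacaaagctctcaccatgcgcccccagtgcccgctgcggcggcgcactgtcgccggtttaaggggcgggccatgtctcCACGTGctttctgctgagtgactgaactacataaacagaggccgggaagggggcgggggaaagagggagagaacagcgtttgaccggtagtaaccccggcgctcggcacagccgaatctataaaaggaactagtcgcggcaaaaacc

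The table held a promoter for 25 of the 31 members; Fdps, Fdft1, Sqle, Stard4, Npc1 and Abcg1 had none. A CCAAT box was in 14 of the 15 synthesis enzymes with an entry, against 37.5% of 27025 genes, and in 4 of 5 SREBP regulators. It was in none of the 3 LXR and efflux genes with an entry, nor in Ch25h. In Hmgcs1 it occurred 3 times, beginning 237, 176 and 45 bases before the start, with the sterol regulatory element at 137. Hsd17b7 also held it 3 times, at 165, 73 and 12 bases, with an E-box at 143. The sterol regulatory element was in Hmgcs1 and Srebf2 alone among the 25, and in 1.81% of all genes. The E-box was in Hsd17b7, Sc5d, Dhcr7, Scap, Insig1 and Abca1, and in 6.86% of all genes. The cyclic AMP element of Ch25h, 61 bases before the start, was in 1.77% of all genes. These are matches of letters, not shown binding sites.

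Ch25h, which adds a hydroxyl group to cholesterol and so makes an oxysterol known for antiviral activity, had the largest differences on the list. It read 377 and 264 in the Control arrays (cultures 1 and 2), 1294 and 1198 with LPS, and 285 and 324 with HS+LPS. Both LPS arrays were far above the other 4, and Control and HS+LPS overlapped. It rose 3.91-fold with LPS (log2 difference 1.97, SE 0.19, limma adjusted p = 0.0399, blocked 0.000174). In that fit Ch25h was the only one of 29 members called, where 0.147% of all genes were called higher and 0% lower. HS+LPS against LPS used the same LPS arrays, and there Ch25h was 4.06-fold lower (log2 difference -2.02, SE 0.19, adjusted p = 0.0159, blocked 6.57e-05). It was again the only member called, with 0.844% of all genes called lower and 0.511% higher. HS+LPS and Control differed by -0.05 (95% interval -0.52 to 0.42, adjusted p = 0.947). The call for LPS was lost without any 1 of the 6 arrays, with a stricter filter on dim genes and without the intensity trend, and that for HS+LPS against LPS without any 1 of the 4 arrays it compares. With the block both calls held without any 1 array, and the LPS call was lost without the intensity trend.

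Cyp7b1, which degrades oxysterols including the product of Ch25h, belonged to a wider list of sterol genes. It read 115 and 415 in Control, 382 and 897 with LPS, and 101 and 360 with HS+LPS. Within each culture the LPS array was the highest, and both LPS arrays were above both HS+LPS arrays, while Control overlapped with each. It rose with LPS by 1.40 on the log2 scale in the blocked fit and fell with HS+LPS against LPS by 1.60 (blocked adjusted p = 0.00111 and 0.00024), and was not called without the block (adjusted p = 0.999 and 0.404). Olr1, a scavenger receptor for oxidised LDL, read 52.0 and 95.6, then 149 and 264, then 61.3 and 96.7 in the same order. Both LPS arrays were above the other 4. Its log2 differences were 1.44 for LPS and -1.32 for HS+LPS against LPS (adjusted p = 0.691 and 0.195, blocked 0.000595 and 0.000353).

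**Figure D1:**
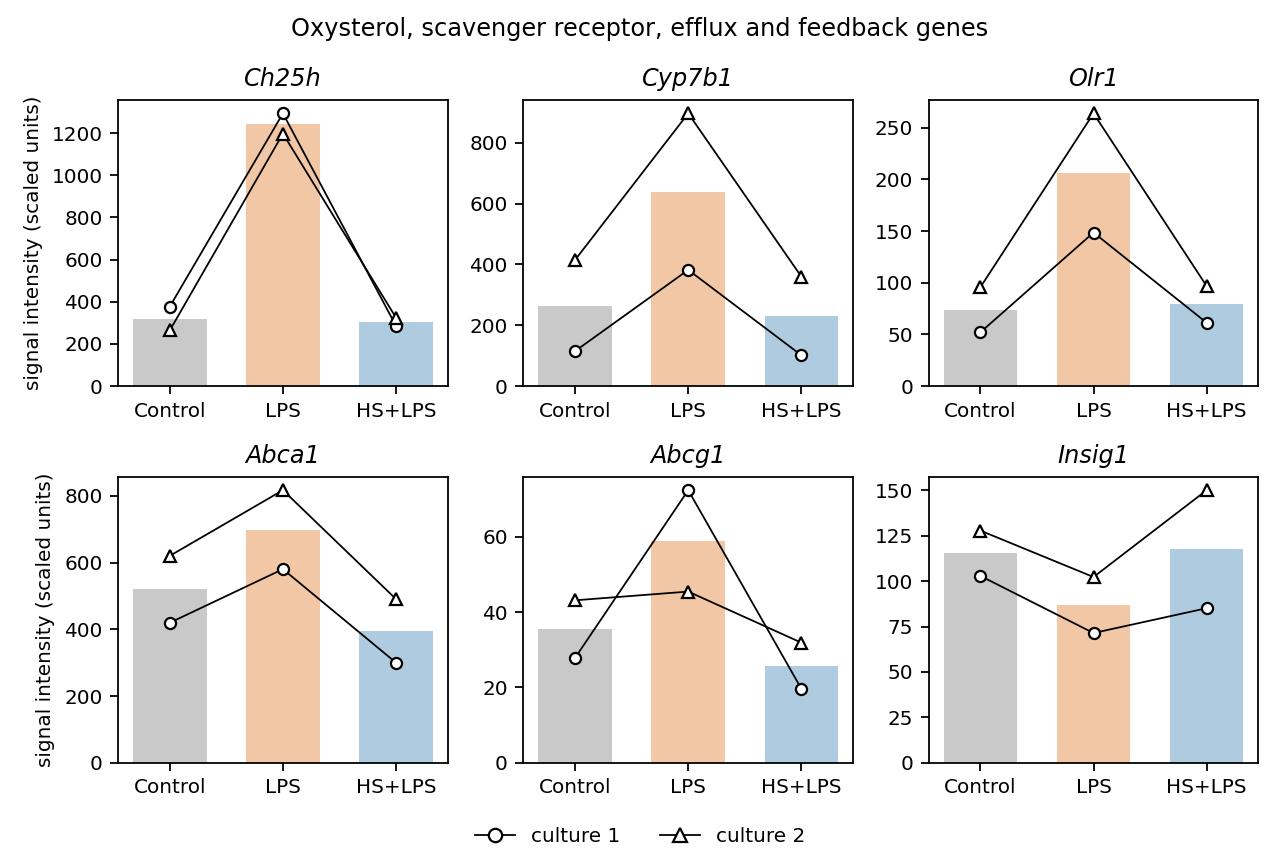
Signal intensity in scaled units (linear axis from 0) for single genes in Control, LPS and HS+LPS, with 1 marker per array and a line joining the arrays of a culture. Ch25h stood at 1198 and 1294 with LPS and at 264 to 377 on the other 4 arrays, and Abca1 was highest with LPS and lowest with HS+LPS within each culture.

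Abca1, which loads cholesterol onto apolipoprotein A-I, read 420 and 620 in Control, 580 and 817 with LPS, and 299.9 and 490 with HS+LPS. Each culture had the order LPS, Control, HS+LPS from high to low, and across cultures both LPS arrays were above both HS+LPS arrays, while Control overlapped with each. It was not called in the 3-group fit. With the block Abca1 rose with LPS (log2 difference 0.43, limma blocked adjusted p = 0.0358), and it was lower with HS+LPS than with LPS (-0.84, 1.79-fold lower, 0.000433) and than in Control (-0.41, 0.0145); without the block the adjusted p were 0.999, 0.26 and 0.609. Its other probe sets gave 0.43 and 0.42 for LPS, -0.89 and -0.41 for HS+LPS against LPS, and -0.46 and 0.01 for HS+LPS against Control. With the mean over probe sets the blocked calls for LPS and against Control were lost. The blocked LPS call was lost without any 1 of the 4 arrays it compares, and the blocked call against LPS was kept without any 1 array. The call against Control was lost without either Control array.

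Abcg1, which passes cholesterol to HDL particles, was dimmer, at 27.9 and 43.1 in Control, 72.4 and 45.5 with LPS, and 19.7 and 31.9 with HS+LPS. Its 2 LPS arrays were above all others, but the LPS difference was 1.28 in culture 1 and 0.07 in culture 2 (log2). It was not called for LPS (log2 difference 0.67, adjusted p = 0.999, blocked 0.346), and with HS+LPS it was lower than with LPS (-1.09, adjusted p = 0.211, blocked 0.0405). That blocked call was lost with quantile normalization, the mean over probe sets, no filter or no intensity trend. Without LPS 1 or HS+LPS 1 the blocked difference was not called. Nr1h3, the LXRalpha receptor, read 12.5 to 19.1 on all arrays, close to the noise level, and its log2 differences of -0.13 to 0.13 were not called in either fit.

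Among the SREBP regulators 0 of 5 were called in any of the 3 comparisons without the block. Srebf1, the SREBP more tied to fatty acid genes, read 299 and 348 in Control, 264 and 316 with LPS, and 202 and 213 with HS+LPS. Both HS+LPS arrays were below the other 4, while Control and LPS overlapped. It fell in the blocked fit by 0.47 against LPS and by 0.63 against Control on the log2 scale (blocked adjusted p = 0.0113 and 0.00389, unblocked 0.209 and 0.14); these calls were lost without LPS 2 and without Control 2, respectively. Srebf2 read 171 and 291 in Control, 215 and 304 with LPS, and 157 and 241 with HS+LPS. The groups overlapped, and in each culture HS+LPS was the lowest. Srebf2 fell by 0.39 against LPS with the block (adjusted p = 0.63, blocked 0.0338), but its second probe set gave -0.02. The blocked call was lost with quantile normalization, median centring, the mean over probe sets or no intensity trend. It was also lost without Control 2, LPS 1, LPS 2 or HS+LPS 2, and in the blocked fit with only the HS+LPS and LPS arrays. Scap read 446 to 546 over all arrays, with log2 differences of -0.15 to 0.10.

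The Insig genes did not pass in either fit. Insig1, itself a target of SREBP, read 103 and 128 in Control, 71.4 and 102 with LPS, and 85.1 and 150.0 with HS+LPS. It was lowest with LPS in each culture, and both LPS arrays were below both Control arrays (log2 difference -0.41, blocked adjusted p = 0.231, and 0.39 for HS+LPS against LPS, blocked 0.104). Insig2 read 350.1 and 270.3, then 373 and 478, then 315 and 369. Both LPS arrays were above the other 4, with differences of 0.09 in culture 1 and 0.82 in culture 2 (mean 0.45, blocked adjusted p = 0.2). Its other 2 probe sets gave 0.43 and 0.24. Insig2 was called higher in a blocked fit with only the Control and LPS arrays, which has fewer residual degrees of freedom.

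With LPS, 16 of the 17 synthesis enzymes tested were lower than Control in both cultures and 0 were higher in both, where 38.5% of all genes were lower in both. The median log2 difference was -0.29, against -0.05 over all genes, and it was -0.19 in culture 1 and -0.42 in culture 2. None of the 17 was called by limma with or without the block, where the block called 2.04% of all genes higher and 0.705% lower. At an unadjusted p under 0.05 there were 0 without the block and 12 with it, all lower, against 8.58% of all genes lower at that level with the block. The estimate was more negative in culture 2 than in culture 1 for all 17 enzymes, which was so for 49.5% of all genes. With only the Control and LPS arrays in the blocked fit, Hmgcs1, Mvd, Fdft1, Sqle, Lss and Msmo1 were called lower. That fit has fewer residual degrees of freedom than the 2 of the blocked fit on all arrays. A blocked fit without 1 HS+LPS array rests on the same Control and LPS arrays here, so it is no separate support.

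Hmgcs1, which makes HMG-CoA, read 1195 and 2190.2 in Control, 958 and 1384 with LPS, and 767 and 1912 with HS+LPS. Fdft1, squalene synthase, read 637 and 1100.5, then 530.4 and 692, then 420.0 and 731. Msmo1, a sterol C4 methyl oxidase, read 698 and 1098, then 576 and 733, then 506 and 920.2. In these 3 genes culture 1 stepped down from Control to LPS to HS+LPS, while in culture 2 the LPS array was the lowest. Their LPS differences were -0.49, -0.46 and -0.43 (blocked adjusted p = 0.157, 0.0696 and 0.108). Sc5d, a late desaturase, was the 1 enzyme not lower in both cultures, at 0.16 in culture 1 and -0.22 in culture 2. Dhcr7, which reduces the last double bond of the sterol ring on one route to cholesterol, read 65.4 and 149.8 in Control, 57.7 and 122 with LPS, and 54.1 and 114 with HS+LPS. It was highest in Control and lowest with HS+LPS in each culture, and its differences of -0.23 (LPS), -0.09 (HS+LPS against LPS) and -0.32 (HS+LPS against Control) were not called in either fit.

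**Figure D2:**
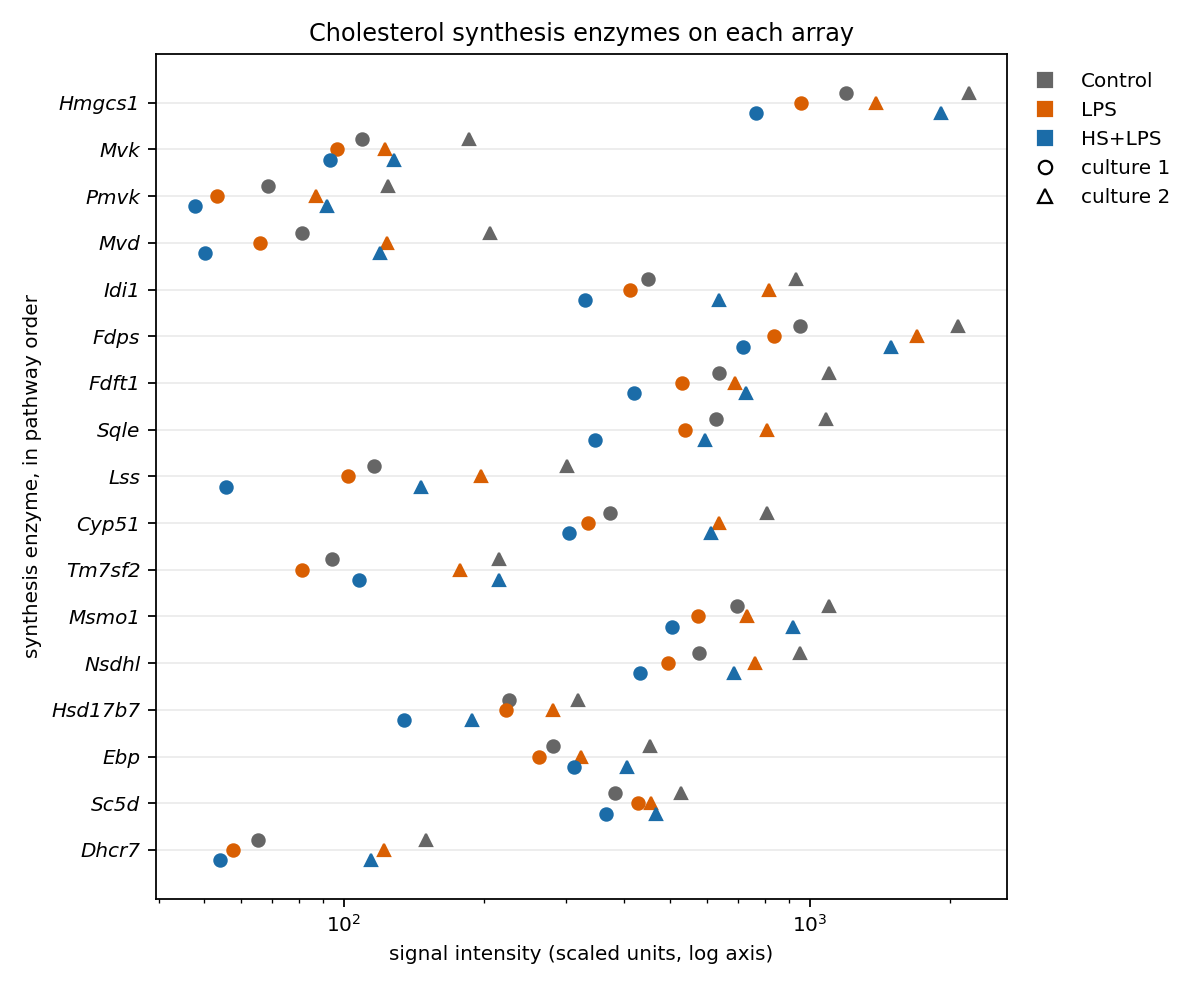
Signal intensity (scaled units, log axis) of the 17 synthesis enzymes in pathway order on each of the 6 arrays, coloured by group and with the marker shape giving the culture. The culture 2 markers lie to the right of culture 1 within each group for all 17 enzymes, and no difference between group means is as large as this shift except in Sqle and Hsd17b7.

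In HS+LPS against LPS the synthesis enzymes did not share a direction. Their median was -0.10, against -0.05 over all genes, 9 of 17 were lower and 2 were higher in both cultures, and 40.7% and 31% of all genes were so. In the limma fit without the block 0 of 17 were called and 1, Hsd17b7, had an unadjusted p under 0.05. With the block Idi1, Sqle, Lss and Hsd17b7 fell, where 12.6% of all genes were called lower and 6.32% higher. Over all 29 members the blocked fit called 9 lower and 0 higher, and without the intensity trend it called Abca1 and Ch25h alone.

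Sqle, the oxygen-dependent squalene epoxidase, read 630 and 1083 in Control, 540.3 and 810 with LPS, and 345 and 597 with HS+LPS. Lss, which closes squalene epoxide into lanosterol, read 116 and 301, then 102 and 197, then 55.8 and 146. Hsd17b7, a 3-keto reductase of the later pathway, read 226 and 318, then 223 and 280.5, then 135 and 188. In all 3 genes HS+LPS was the lowest of each culture; in Hsd17b7 both HS+LPS arrays were also below the other 4. Against LPS the log2 differences were -0.54, -0.63 and -0.64 (limma blocked adjusted p = 0.00368, 0.0157 and 0.00351; without the block 0.536, 0.681 and 0.278). The second Lss probe set gave -0.67, and the next 2 of Hsd17b7 gave -0.51 and -0.61, while its dimmest gave 0.13. The dimmest Lss probe set, below the filter on dim genes, gave 0.07. Sqle and Hsd17b7 kept their blocked call without any 1 array, and Lss lost it without LPS 1. The blocked calls of Lss and Hsd17b7 were lost with the mean over probe sets. That of Sqle, which has 1 probe set, was kept.

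Idi1, the isomerase that makes dimethylallyl diphosphate, read 448 and 932 in Control, 411 and 816 with LPS, and 329.6 and 637 with HS+LPS. It stepped down in both cultures (log2 difference of HS+LPS to LPS -0.34, blocked adjusted p = 0.02, unblocked 0.804), and the blocked call was lost without either LPS array and without HS+LPS 2. Tm7sf2, a sterol C14 reductase, and Ebp, a sterol isomerase, were higher with HS+LPS than LPS in both cultures. Their differences of 0.33 and 0.29 were not called (blocked adjusted p = 0.0792 and 0.105). Hmgcs1, Mvk, Pmvk and Msmo1 lay between -0.04 and 0.07.

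Against Control, HS+LPS was lower in both cultures in 15 of the 17 enzymes, with 46.8% of all genes lower in both, and their median was -0.44 against -0.09. In the 3-group limma fit 0 of the 29 members were called, where 0.17% of all genes were called higher and 0.00774% lower, and 2 members, Hsd17b7 and Srebf1, had an unadjusted p under 0.05. With the block 11 members fell and 0 rose, where 12.1% of all genes were called lower and 5.06% higher. These were Srebf1, Abca1 and 9 enzymes: Mvd, Idi1, Fdps, Fdft1, Sqle, Lss, Cyp51, Nsdhl and Hsd17b7. With the mean over probe sets the blocked calls of Abca1, Fdps, Fdft1, Lss and Cyp51 were lost. Without Control 2 the blocked enzyme calls were Sqle, Lss and Hsd17b7, and without the intensity trend the blocked fit called 0 members.

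The cultures gave close estimates for several of these enzymes. Lss was 2.03-fold lower (log2 difference -1.02, with -1.01 in culture 1 and -1.02 in culture 2, limma blocked adjusted p = 0.00246, unblocked 0.501). Sqle differed by -0.86 in both cultures (blocked 0.000616, unblocked 0.338), and Hsd17b7 by -0.73 and -0.75 (mean -0.74, blocked 0.00233, unblocked 0.231). Mvd, which decarboxylates mevalonate diphosphate, read 81.2 and 206 in Control, 66.0 and 124 with LPS, and 50.3 and 119 with HS+LPS (-0.72, blocked 0.0137). Fdps, farnesyl diphosphate synthase, read 955 and 2083, then 839 and 1696, then 717 and 1494 (-0.44, blocked 0.00487). Within each culture both genes were highest in Control and lowest with HS+LPS. The groups overlapped for Lss, Mvd and Fdps, since culture 2 read higher throughout. Cyp51, the lanosterol demethylase, fell by 0.34 (blocked adjusted p = 0.026), but its other 2 probe sets gave -0.12 and -0.09, and the call was lost without Control 1, Control 2 or HS+LPS 2. Nsdhl, which removes a C4 carboxyl group, fell by 0.44 (0.00674). Ebp and Tm7sf2 were at -0.01 and 0.10.

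**Figure D3:**
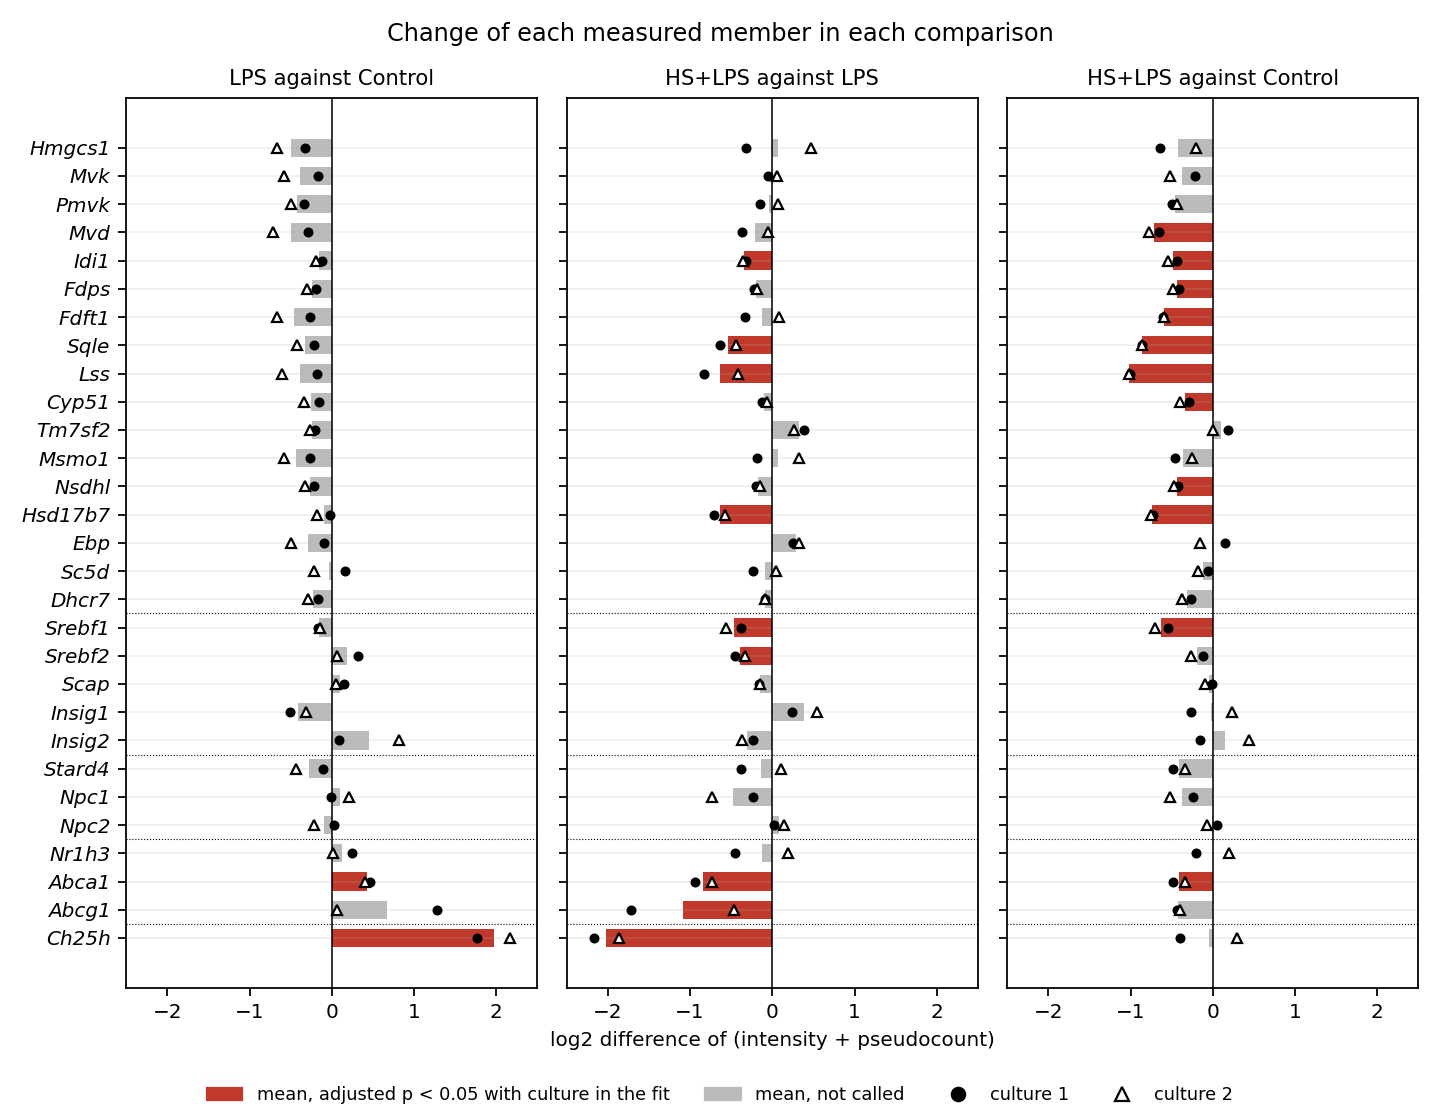
Log2 difference of intensity plus pseudocount for each of the 29 measured members in the 3 comparisons. Bars give the mean of the cultures, red where the blocked adjusted p is under 0.05 (2, 9 and 11 members), and markers give each culture. Ch25h leads the first 2 panels with 1.97 and -2.02, and Lss is the lowest of the third at -1.02.

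None of the 3 transport genes was called in any comparison in either fit. Npc2, which binds cholesterol inside the lysosome, read 3480 to 4065 over the 6 arrays, with log2 differences of -0.09 to 0.08. Its membrane partner Npc1 read 91.0 and 97.9 in Control, 90.7 and 114 with LPS, and 76.6 and 67.4 with HS+LPS. Both HS+LPS arrays were below the other 4 (log2 difference against LPS -0.48, adjusted p = 0.266, blocked 0.0656). Stard4, which ferries sterol between membranes, read 238 and 304, then 220.1 and 223, then 169 and 240.2 (HS+LPS against Control -0.41, blocked 0.0558).

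Wider lists of pathway genes placed the members in context; without the block limma called 0 of their genes in any comparison. Their counts in the blocked fit stand against the shares of all genes called there: 2.04% higher and 0.705% lower with LPS, 6.32% and 12.6% with HS+LPS against LPS, and 5.06% and 12.1% with HS+LPS against Control. Whether the count of a list differs from these shares was not tested. Of 15 SREBP-1 fatty acid genes tested, 0 were called with LPS with the block, and 3 fell with HS+LPS against LPS: Fasn, fatty acid synthase (-0.39, blocked adjusted p = 0.0251), Gpam, which starts triglyceride synthesis (-0.41, 0.0385), and Lpin1, a phosphatidate phosphatase (-0.65, 0.0146). These 3 and Scd2, a desaturase (-0.38, 0.0143), fell against Control. Lpin1 read 114 and 147 in Control, 107 and 119 with LPS, and 71.1 and 69.5 with HS+LPS, so both HS+LPS arrays were below the other 4. Of 12 genes of sterol sensing and SREBP processing, 0 were called with LPS; against LPS, Mbtps2, the site-2 protease that frees SREBP, Rnf145, a ubiquitin ligase, and Sec24d, a vesicle coat protein, fell (-0.34, -0.36 and -0.32), and Pgrmc1, a haem-binding sterol partner, rose (0.37, blocked 0.0107). Against Control, Mbtps2, Sec24d and Erlin1, an endoplasmic reticulum membrane protein, fell (-0.37, -0.47 and -0.44).

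Of 10 lipoprotein receptor and uptake genes, Olr1 alone rose with LPS in the blocked fit, and Olr1 and Lipa, the lysosomal acid lipase (-0.34, blocked 0.0344), fell with HS+LPS against LPS. Against Control, Scarb2, a lysosomal membrane receptor, fell (-0.37, blocked 0.0126). Of 13 esterification, transfer and oxysterol genes, Cyp7b1 alone rose with LPS; against LPS, Cyp7b1, Osbpl8 and Gramd1b, both lipid transfer proteins (-0.60 and -0.94), fell, and against Control Osbpl8 fell (-0.60, blocked 0.0177). Gramd1b read 23.3 and 40.6 in Control, 30.4 and 35.5 with LPS, and 15.7 and 15.3 with HS+LPS, so both HS+LPS arrays were below the other 4. A further list of 8 genes held LXR targets and the receptor genes Rxra and Rxrb. Of these 8, Lpl, lipoprotein lipase, fell by 1.13 with LPS (blocked 0.00542). It read 69.8 and 235 in Control, 33.3 and 96.6 with LPS, and 39.1 and 152 with HS+LPS. Against LPS, Lpcat3, which remodels phospholipids, fell (-0.36) and Smpdl3a, a phosphodiesterase, rose (0.32). Against Control, Lpcat3 and Lpl fell (-0.42 and -0.70). Of 11 genes of the isoprenoid branch, which uses farnesyl diphosphate for prenyl groups, ubiquinone and dolichol, Fnta, a farnesyltransferase subunit, was the 1 called (0.23 against LPS, blocked 0.049).

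The difference between the cultures was larger than any difference between group means in all synthesis enzymes but Sqle and Hsd17b7. It was compared after the data were seen, as the culture term of the blocked fit, with 3 arrays of each culture and 1 embryo behind each. All 17 enzymes were higher in culture 2 and called, where 11.4% of all genes were called higher and 10.1% lower, and all 17 were higher in each of the 3 groups, as were 27.9% of all genes. The median log2 difference was 0.80, or 1.74-fold, from 0.30 for Sc5d to 1.20 for Lss (2.3-fold). Fdps was 2.09-fold higher (log2 difference 1.06, limma adjusted p = 7.14e-06). For Sc5d the other 2 probe sets gave -0.14 and -0.23. Outside the enzymes Srebf2 (0.62), Insig1 (0.53) and Abca1 (0.58) were called higher, so that 20 of 29 members were higher and 0 lower, and Ch25h (-0.15) was not called. Without the intensity trend 10 of the 17 enzymes were called, and 13 without either Control array.

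Genes beyond cholesterol synthesis moved with the culture too. Of the 15 fatty acid genes 8 were called higher and 1 lower, with Scd1, stearoyl-CoA desaturase, at 1.20 and Elovl6, a fatty acid elongase, at 1.20. Of 10 fibroblast markers 6 were called higher and 1 lower in culture 2, with Pdgfra at 2.24 and Dcn at 2.16, and of 8 macrophage markers tested 0 were higher and 2, Lyz2 and Csf1r, lower. The part of these markers in the enzyme difference was not tested. Embryo, culture and any handling of the culture cannot be told apart.

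**Figure D4:**
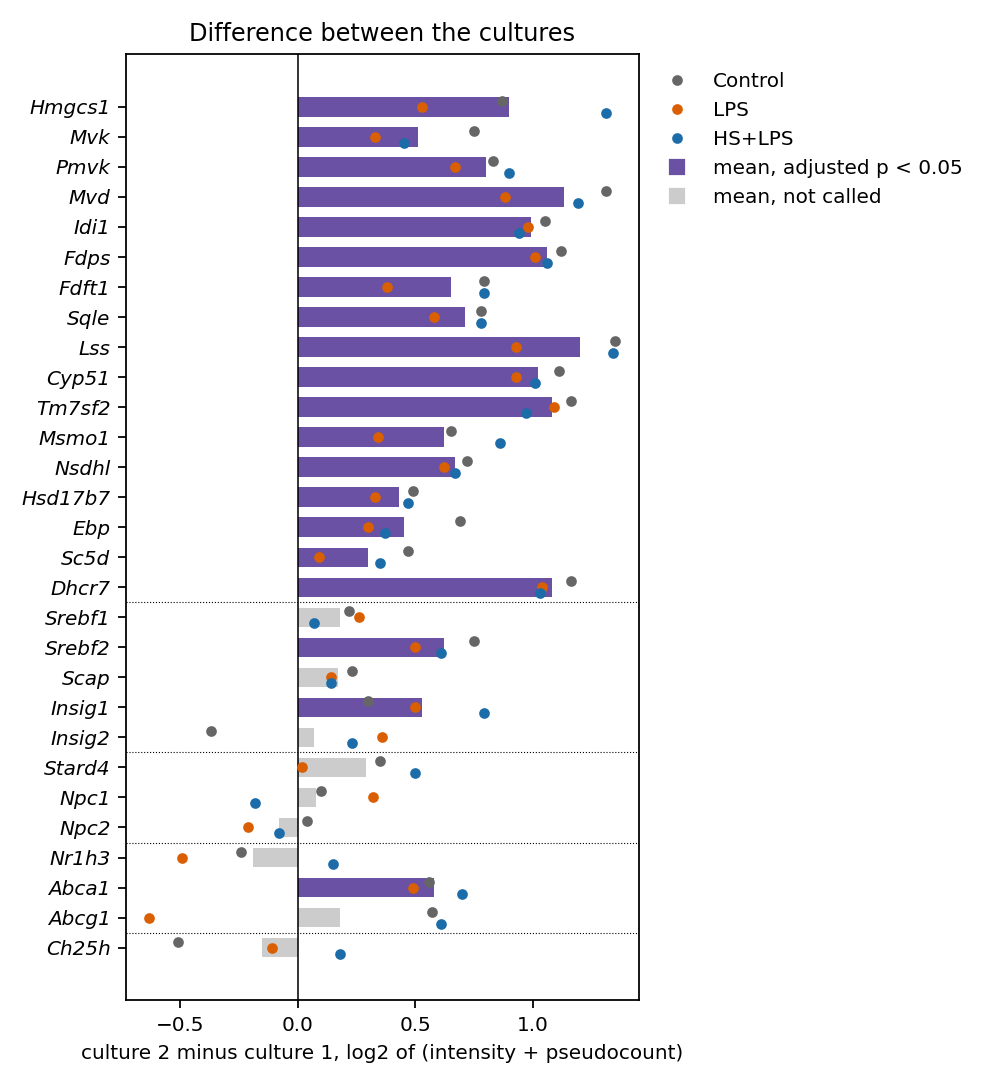
Difference between culture 2 and culture 1 on the log2 scale for each measured member, as the mean (bars, purple where the adjusted p is under 0.05) and within each of the 3 groups (dots). The 17 synthesis enzymes lie between 0.30 and 1.20, and Ch25h at -0.15.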

How the data were processed

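Per the labels, biotin-labelled cRNA from 6 MEF samples was hybridised to 1-colour mouse expression arrays. The authors deposited linear signal intensity, 1 value per probe set and array; the sources used here do not name the software or scaling. The mean after trimming 2% at each end was 100.001 on every array, so the values were used as deposited. A common mean hides any difference in total mRNA.

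Of 45101 probe sets, 34958 had 1 gene symbol in the platform annotation. Intensities became log2(intensity + 3.37), the pseudocount being their 25th percentile, and a probe set was dropped when its mean signal lay below the 40th percentile. A gene was its brightest single-symbol probe set. Of the members, 14 had several above the filter, and an opposing one occurred in 4, 2 and 4 of them for LPS against Control, HS+LPS against LPS and HS+LPS against Control. Groups were compared in limma 3.58.1, run in R 4.3.3 (intensity trend, 3 residual degrees of freedom, 2 with the block).

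Arrays of 1 number come from 1 embryo, per the labels, so the culture pairs them; their deviations from the group means correlated at 0.62, 0.57 and 0.53 across genes. The block lowered the median SE from 0.23 to 0.15. The members, lists and tests were chosen with earlier results of these data known; the blocked variants and the culture comparison were added after the data were seen. All tested members are named, and of the other lists the genes called in the blocked fit; values per array are given for the genes whose pattern is described. Alternatives changed the pseudocount, filter, scaling, probe set rule, trend, block and arrays. The fit was tested on simulated data.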

Additional observations from a re-analysis of the deposited data

How the results depend on the processing

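The 22 member differences called in either fit were compared with their values under 17 alternatives to the fit without the block and 15 to the blocked fit. Without the block, 315 of 374 comparisons kept their direction and their side of the threshold. Only the Ch25h differences for LPS and for HS+LPS against LPS were called in that fit, and they kept the call in 9 and 13 of the 17 alternatives. The others mostly stayed not called. With the block 269 of 330 kept both, and the other 61 lost the call in the same direction. Signal over background limits Nr1h3 and Abcg1, and 2 cultures limit all p-values. The cause of the shifts below was not tested.

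The replicate block called 354, 2449 and 2215 genes (LPS against Control, HS+LPS against LPS, HS+LPS against Control) in place of 19, 175 and 23, and 2, 9 and 11 members in place of 1, 1 and 0. With only the 2 groups compared it called 983, 2172 and 2130 genes and 9, 8 and 14 members. Without the trend and block the counts of genes were 5, 85 and 11, with 0 members for LPS. The 60th percentile filter left 0 members for LPS. For HS+LPS against Control that filter gave 38 genes, a pseudocount of 16 gave 55, and median centring 60, of which 51 were higher and 9 lower (22 and 1 as deposited). The enzyme median there moved from -0.44 to -0.41 (pseudocount 16), -0.47 (quantile) and -0.39 (mean over probe sets).

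In the blocked fit the mean over probe sets gave 226, 1557 and 1258 genes and, for HS+LPS against Control, 6 members. Without the trend it gave 11, 438 and 18 genes and 0, 2 and 0 members. For LPS median centring gave 5 members and no filter 1. Between cultures the trend's removal took genes from 2783 to 1025, members from 20 to 12 and enzymes from 17 to 10.

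Leaving out 1 array gave, without the block, 0 to 4, 8 to 76 and 8 to 14 genes, 0, 0 to 1 and 0 members, and enzyme medians of -0.80 to 0.14, -0.58 to 0.32 and -0.91 to 0.00. The direction turned for Idi1 (-0.83 to 0.16) and Lss (-1.30 to 0.04) in HS+LPS against LPS. It also turned for Idi1 (-1.02 to 0.03), Fdps (-1.01 to 0.12) and Cyp51 (-0.90 to 0.21) in HS+LPS against Control. Such a fit sets a group of 1 culture against a group of both, so the difference between the cultures enters the estimate. Within each culture these genes were lower in these comparisons. The lone array left is assumed to vary like the other groups. With the block the ranges were 169 to 975, 786 to 2883 and 556 to 2870 genes and 1 to 8, 5 to 11 and 3 to 14 members, with no direction turned. Between cultures they were 1775 to 3007 genes, 16 to 21 members and 13 to 17 enzymes.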
